A study of Caenorhabditis elegans with 2 samples.

Results

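The 46 genes described here are 29 genes of axon guidance, from unc-6 to dig-1, and 17 genes of the synapse and of neurons in general, from unc-31 to egl-21. They were taken from a list of names out of 19973 protein-coding genes on the nuclear chromosomes of C. elegans, and all 46 names were found in the annotation. The question asked of them was whether chromatin bound by FAX-1, a nuclear hormone receptor that acts in interneurons and in axon pathfinding, lay at their starts. The 2 biological replicates were whole hermaphrodite embryos of strain OP164 at a late embryonic stage, 4 h after synchronization by bleaching. The strain carries a transgene for FAX-1 with eGFP and FLAG at its C-terminus, and sonicated chromatin was precipitated through the GFP. The labels name neither the promoter of the transgene nor its copy number, the sequencing depth is unknown, and there was no other genotype or stage to compare with. Chromatin of whole embryos mixes all cell types, so a strong peak in few cells and a weak one in many cannot be told apart.

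Growing axons read secreted cues through receptors on the growth cone. Netrin (unc-6) acts through unc-40 and unc-5, Slit (slt-1) through sax-3, semaphorins through plexins, and Wnts (egl-20, lin-44, cwn-1, cwn-2) through Frizzled and Ror receptors. Inside the axon, cytoskeletal and transport proteins carry out the turn, and adhesion molecules hold the fibre in place. At the synapse, vesicles fuse through the SNARE complex of syntaxin (unc-64), synaptobrevin (snb-1) and SNAP-25 (ric-4), with unc-13 and unc-18 preparing fusion, while dense-core vesicles carrying neuropeptides also need unc-31.

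The authors deposited a loosely called list of candidate peaks for each replicate and for the pooled replicates. They also deposited a final list of 830 rows that passed a reproducibility filter. Overlapping rows of the pooled list were merged into regions, and each region was assigned to the protein-coding gene whose 5′ end was nearest to its summit, within 5000 bp. The 46 genes received 83 of the 12691 nuclear regions, 54 at guidance genes and 29 at synaptic genes. Values below are the signal column of the pooled list, in the units of the peak caller, which is not named. Signals in that list run from 31.6 to 2532, and the final list begins at 98.3. Ranks count from 1, the strongest row of a list, and are used to set the replicates side by side because replicate 1 had 15446 rows and replicate 2 had 18555. No test was made on the genes as a list, and their counts stand beside the same counts over all genes.

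Regions of the final list lay at 6 of the 46 genes: the guidance genes lin-17, unc-76, unc-115 and sax-7, and the synaptic genes unc-31 and syd-2. That is 4 of 29 guidance genes (13.8%) and 2 of 17 synaptic genes (11.8%), beside 3.50% of all protein-coding genes. Any pooled region was assigned to 22 guidance genes (75.9%) and 14 synaptic genes (82.4%), beside 38.4% of all genes. Counted over regions instead of genes, the shares were closer to the background. The final list held 4 of the 54 guidance regions (7.41%) and 2 of the 29 synaptic regions (6.90%), beside 6.59% of all regions assigned to a gene and 6.17% of all nuclear regions. The median signal was 42.0 over guidance regions and 41.6 over synaptic regions, beside 40.7 over all assigned regions.

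**Figure D1:**
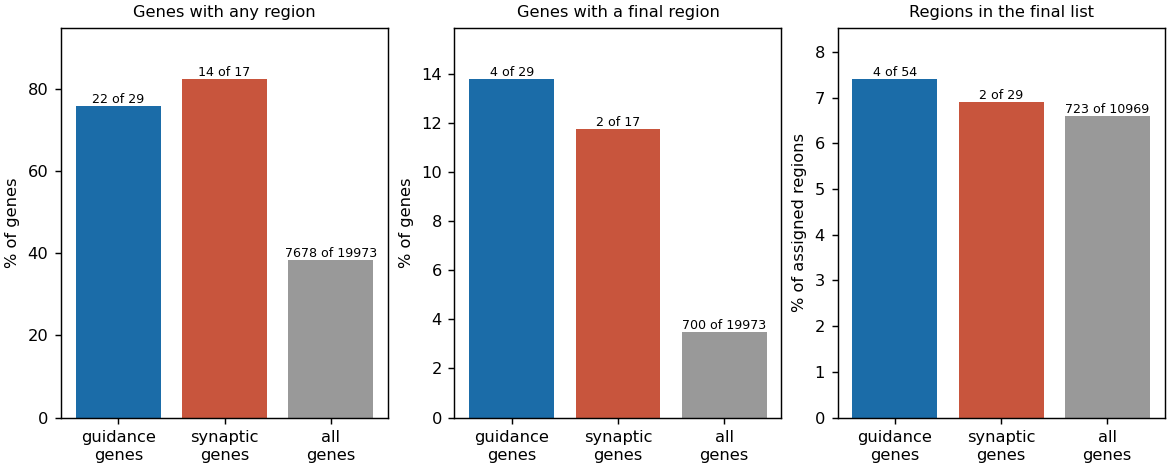
Share of guidance genes, synaptic genes and all nuclear protein-coding genes with any pooled region (left) or a final region (middle), in % of genes, and share of their assigned regions that are in the final list (right), in % of regions. The gene shares of both groups are above those of all genes, while the shares of regions, 7.41% and 6.90%, are close to the 6.59% of all assigned regions.

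The 46 genes are long and widely spaced, which bears on how many regions they can receive. The stretch of chromosome nearest to the gene's own start, within 5000 bp on either side, had a median of 6982 bp for guidance genes, 6921 bp for synaptic genes and 3859 bp for all genes. Per 10 kb of such stretch there were 2.52 pooled regions at guidance genes, 2.47 at synaptic genes and 1.27 at all genes. Final regions numbered 1.87 per 100 kb at guidance genes, 1.71 at synaptic genes and 0.840 at all genes, the first 2 figures resting on 4 and 2 regions. Guidance and synaptic genes were thus close to each other on spacing and on both densities. The part of gene spacing in the shares was not tested beyond these densities.

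Sequences under 5 of the 6 final summits are shown because the regions differ in what lies there; that of lin-17 is not printed here, and its word is given with the other words. Each runs from 75 bases before the summit to 75 bases after it, on the forward strand of ce11, from the RefSeq copy of the genome. Capitals mark matches on either strand to 6 words or, at unc-115, to the B box, the inner promoter element of tRNA genes, whose search was added after the data were seen. The words were AAGTCA, the single site of the nuclear receptor class that FAX-1 belongs to, the more general receptor site AGGTCA, the repeat GAGAGA, the homeodomain word TAATTA, the GATA-factor word TGATAA, and the E box CACGTG.
unc-76, chrV:15071403-15071553: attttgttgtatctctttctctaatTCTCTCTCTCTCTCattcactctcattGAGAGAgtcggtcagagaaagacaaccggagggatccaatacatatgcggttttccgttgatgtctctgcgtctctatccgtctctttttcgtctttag
unc-115, chrX:10145124-10145274: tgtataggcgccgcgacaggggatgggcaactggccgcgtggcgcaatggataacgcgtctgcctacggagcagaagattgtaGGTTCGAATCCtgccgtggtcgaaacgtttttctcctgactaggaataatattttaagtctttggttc
sax-7, chrIV:8066758-8066908: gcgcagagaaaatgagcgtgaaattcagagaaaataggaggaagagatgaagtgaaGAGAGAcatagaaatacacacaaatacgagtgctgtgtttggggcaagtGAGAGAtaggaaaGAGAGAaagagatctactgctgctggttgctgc
unc-31, chrIV:12771610-12771760: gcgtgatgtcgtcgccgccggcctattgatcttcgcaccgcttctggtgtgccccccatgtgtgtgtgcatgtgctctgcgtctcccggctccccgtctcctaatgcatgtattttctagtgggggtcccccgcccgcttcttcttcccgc
syd-2, chrX:10555578-10555728: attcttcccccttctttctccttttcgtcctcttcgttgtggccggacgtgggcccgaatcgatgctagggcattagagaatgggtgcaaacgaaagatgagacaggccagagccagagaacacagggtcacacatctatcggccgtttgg
unc-64, chrIII:13275914-13276064: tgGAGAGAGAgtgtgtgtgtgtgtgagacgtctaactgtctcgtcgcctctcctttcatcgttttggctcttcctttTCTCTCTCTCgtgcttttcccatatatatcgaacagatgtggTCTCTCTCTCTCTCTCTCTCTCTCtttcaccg
The unc-64 window is a weaker candidate, shown because it holds the longest alternating GA or TC run of the 83 windows, 25 bases. The unc-31 window, with none of the words, is 62.3% G or C, against a median of 40.4% over all nuclear regions.

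Among guidance genes, 1 of the 9 receptors had a final region, beside 3.50% of all genes. It lay at lin-17, a Frizzled receptor for Wnts. Its signal was 149.0, rank 372, at I 2710477 to 2710912, and the summit lay in an intron, 3812 bp downstream of the gene's outermost start and 742 bp from the 5′ end of another annotated transcript. It ranked 394 in replicate 1, with a signal of 93.2, and 353 in replicate 2, with 56.2. The other 3 candidates at lin-17 were weak in the pooled list, from 34.1 to 48.7, although the weakest of them ranked 1154 in replicate 2 and was absent from the list of replicate 1.

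The other receptors had weaker candidates. The ephrin receptor vab-1 had 84.4 at a summit 653 bp upstream of its start (II 4571129 to 4571564), ranking 1109 in replicate 1 and 1631 in replicate 2. The Ror receptor cam-1 had 69.3 at an intronic summit 3337 bp downstream (II 9306749 to 9307478), with ranks of 1239 in replicate 1 and 1682 in replicate 2. The netrin receptors unc-40 and unc-5 had 55.6 and 46.2, the Robo receptor sax-3 had 49.7 and the Frizzled receptor mig-1 had 48.4. This unc-5 candidate was in the list of replicate 1 alone. The unc-40 summit, 297 bp upstream, was also 464 bp from the start of npp-7, so its assignment between the genes rests on a short distance. The sax-3 summit, the only one assigned to that gene, lay 1252 bp from its start and 1294 bp from that of ZK377.15. Its assignment rests on a shorter distance still. Neither plexin received a region, and the summits nearest to plx-1 and plx-2 lay 5285 and 5723 bp from their starts, just past the limit.

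None of the 8 secreted cues had a final region, beside 3.50% of all genes. The stretches nearest to their starts total 44.9 kb, and all genes had 0.840 final regions per 100 kb. Pooled regions numbered 1.11 per 10 kb at the cues, beside 2.52 at guidance genes and 1.27 at all genes. The part of these stretches in the absence of a final region was not tested. The strongest candidate was at mab-20, a secreted semaphorin, with a signal of 96.6 at a summit 27 bp upstream of the start (I 1651266 to 1651701). It ranked 978 in replicate 1 and 781 in replicate 2. The Wnt gene cwn-1 had 47.1, the netrin gene unc-6 had 42.1 at 132 bp upstream, and the Wnt gene lin-44 had 33.4. The unc-6 candidate was in the list of replicate 1 alone, and the lin-44 candidate was in neither replicate's own list. No region was assigned to slt-1, egl-20, cwn-2 or unc-129, the last a TGF-β-like cue. The membrane-bound semaphorin smp-1 had 4 weak candidates, the strongest with 58.9 at 2464 bp upstream.

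All 8 cytoplasmic and cytoskeletal genes had a region, beside 38.4% of all genes. A final region lay at 2 of them (25%), beside 3.50% of all genes. The region at unc-76, which encodes a FEZ protein needed for axon bundling, reached 118.0, rank 560, with a summit lying 282 bp before the start (region V 15071260 to 15071695). It ranked 609 in replicate 1 with a signal of 74.0 and 452 in replicate 2 with 50.6. The window printed above holds GAGAGA and an alternating run of 14 bases.

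The final region of unc-115, an actin-binding protein of the abLIM family, was at another gene's body. Its signal was 103.0, rank 758, and its summit lay 1693 bp upstream of unc-115 but inside the tRNA gene F09B9.t1 (X 10145156 to 10145228), whose B box is in capitals above. The region ranked 674 in replicate 1 with a signal of 70.5 and 814 in replicate 2 with 38.0, inside the strongest 830 rows of both. No other of the 83 summits lay within 500 bp of a tRNA, snoRNA, snRNA or rRNA gene. That is 1.20% of the 83, beside 3.85% of all nuclear regions. Among final regions it was 1 of 6 (16.7%), beside 26.8% of all nuclear final regions. The B box was found in 1 of the 83 windows, and in 3.07% of nuclear final windows and 0.339% of all nuclear ones. A separate candidate 52 bp upstream of unc-115 had a signal of 77.2, with ranks of 1385 in replicate 1 and 1225 in replicate 2.

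The other cytoplasmic genes stayed below the final list. The giant ankyrin gene unc-44 had 5 regions, the most of any of the 46 genes, and the strongest, 1322 bp upstream (IV 5974017 to 5974452), had a signal of 97.4. It ranked 702 in replicate 1 and 2097 in replicate 2, so it was among the strongest 830 rows in replicate 1 alone. The guanine nucleotide exchange factor unc-73 had 63.9 at 988 bp upstream (I 4032509 to 4032944), with ranks of 1546 in replicate 1 and 14478 in replicate 2. The RUN-domain gene unc-14 had 56.9, the CRMP gene unc-33 41.9, the Enabled gene unc-34 40.5 and the kinase gene unc-51 40.4. These unc-33 and unc-34 candidates were in the list of replicate 1 alone. The unc-34 summit with its lower signal, 35.3, lay 48 bp into the gene and 173 bp from the start of Y50D4C.12.

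Of the adhesion genes, sax-7, the L1-type molecule that keeps axons and cell bodies in position, had a final region. Its signal of 102.2, rank 769, was the lowest of the 6. The summit was in an intron 4174 bp downstream of the outermost start but 32 bp from the 5′ end of a shorter transcript. It ranked 1027 in replicate 1 with a signal of 57.7, outside the strongest 830 rows of that list, and 692 in replicate 2 with 40.9. The other L1-type gene, lad-2, had a candidate of 85.9 at 4199 bp upstream (IV 2982465 to 2982900), with ranks of 1051 in replicate 1 and 1791 in replicate 2. The matrix gene dig-1 had none, and the nearest summit was 27705 bp from its start.

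Among synaptic genes, the strongest region lay at unc-31, which encodes the CAPS protein that primes dense-core vesicles. Its signal was 171.8, rank 273 of the pooled list, and its summit lay between genes, 2182 bp upstream of the start of unc-31 (region IV 12771467 to 12771902). It ranked 273 in replicate 1 with a signal of 111.5, and 262 in replicate 2 with 63.7, so its place in the replicates was nearly the same. The start of the next nearest gene, ZK897.10, was 6334 bp from the summit. Further candidates at unc-31, one 277 bp upstream of the start and one in an intron, had signals of 40.6 and 44.2, close to the median of all regions. The intronic one was in the list of replicate 1 alone.

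The second final region at a synaptic gene lay at syd-2, which encodes the liprin-α scaffold that assembles presynaptic active zones. Its signal was 134.9, rank 445, with the summit 414 bp upstream of the gene start, and it ranked 525 in replicate 1 with a signal of 80.3 and 363 in replicate 2 with 55.6. The other active zone organizer, syd-1, had no final region; its strongest candidate, in an intron, had a signal of 60.4. That candidate ranked 8087 in replicate 1 and 1113 in replicate 2, so the replicates differed on it.

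Vesicle release genes other than unc-31 had weaker candidates or none. The strongest was at unc-64, syntaxin, with a signal of 86.4, 1269 bp upstream of the start (III 13275771 to 13276206), ranking 1295 in replicate 1 and 920 in replicate 2. At snb-1, synaptobrevin, a candidate 2511 bp upstream (V 6658794 to 6659229) had a signal of 80.2. It ranked 727 in replicate 1, among that list's strongest 830 rows, and 7492 in replicate 2, which is far below them. The candidate 1028 bp upstream of unc-10, the RIM scaffold of the active zone (X 7281132 to 7281567), had a signal of 69.5 and ranked 3219 in replicate 1 and 1123 in replicate 2. The small GTPase of synaptic vesicles, rab-3, had 61.5 at an intronic summit, and the calcium sensor synaptotagmin, snt-1, had 41.2. This snt-1 candidate was in the list of replicate 1 alone. No region was assigned to unc-13, unc-18 or ric-4: the nearest pooled summits were 23651, 1895 and 4754 bp from their starts, and those at unc-18 and ric-4 were nearer to other genes.

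The remaining synaptic and neuronal genes had weaker candidates. The kinesin unc-104, which carries synaptic vesicle precursors along axons, had a signal of 84.1 at a summit 2065 bp upstream (II 6992704 to 6993341), with ranks of 1140 in replicate 1 and 1494 in replicate 2. The Ras activator rgef-1 had 82.2 at 345 bp upstream (V 9561801 to 9562236), with ranks of 1163 in replicate 1 and 1961 in replicate 2. At unc-119, a gene expressed in most neurons, the summit with 70.3 lay in an intron 3896 bp into the gene but 81 bp from the 5′ end of an annotated transcript (III 10906319 to 10906754). Its ranks were 1566 in replicate 1 and 3356 in replicate 2. The neuropeptide-processing enzymes egl-3, a proprotein convertase, and egl-21, a carboxypeptidase, had 44.5 and 39.0, and ric-19, which acts on dense-core vesicles, had 44.5. These values are near the median of all regions, and the egl-21 candidate was in the list of replicate 1 alone.

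**Figure D2:**
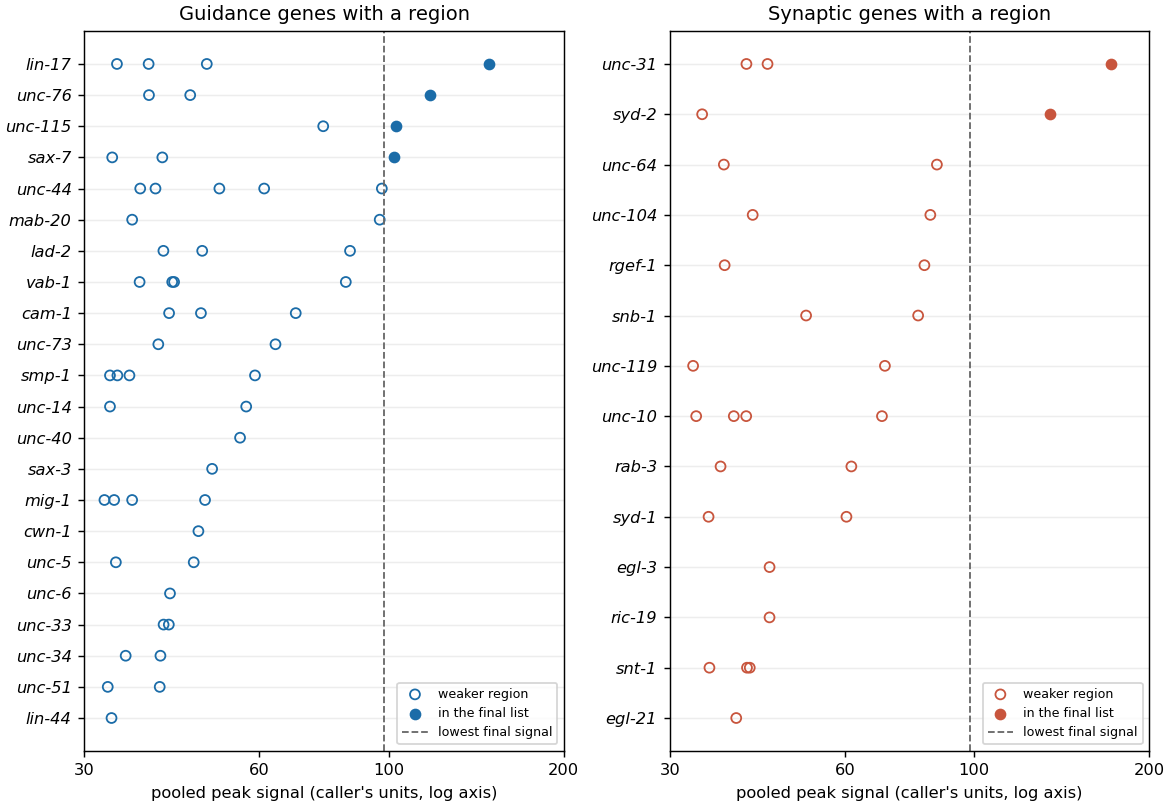
Pooled peak signal (log axis, units of the caller) of every region assigned to each of the 22 guidance genes (left) and 14 synaptic genes (right) that had one, genes ordered by their strongest region. Filled points are in the final list, which starts at 98.3 (dashed line); unc-44 and mab-20 lie just below it at 97.4 and 96.6.

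The limit of the final list fell between neighbours in signal. The weakest members inside it were unc-115 (103.0) and sax-7 (102.2), and the strongest outside it were unc-44 (97.4) and mab-20 (96.6). The authors' final list on the older ce10 build is longer, with 999 rows and a lowest signal of 88.3, and it holds a row of the same chromosome and the same signal to within 0.1% for both unc-44 and mab-20. By the same match it holds a row for lin-17, unc-76, unc-115, sax-7 and syd-2, but no row for unc-31, so of the synaptic genes syd-2 alone was matched. Positions were not converted between the builds, so a matching row may belong to another region of like signal. How often such matches arise was not tested, nor was whether the unc-31 region stands in that list under another signal. With the lowest ce10 signal used as the limit on the ce11 regions, 6 guidance genes and 2 synaptic genes had a region over it, beside 4.21% of all genes. At the looser limit of a deposited q value of 0.05, chosen after the data were seen, the counts were 8 guidance genes (27.6%) and 7 synaptic genes (41.2%), beside 6.56% of all genes. Over regions, 9 of 54 at guidance genes (16.7%) and 7 of 29 at synaptic genes (24.1%) met it, beside 12.0% of all nuclear regions. The order of guidance and synaptic genes thus depended on the limit.

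**Figure D3:**
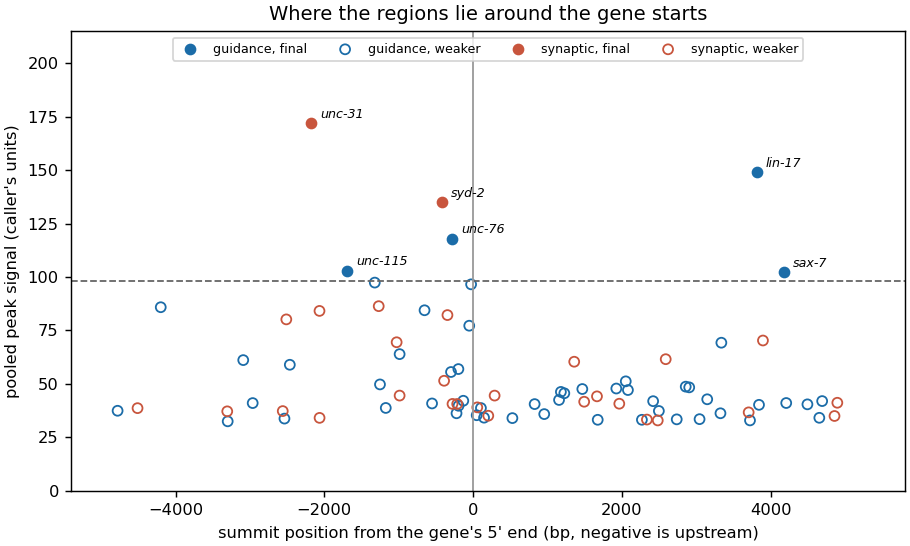
Pooled peak signal of the 83 regions (vertical axis, units of the caller) against the position of the summit from the assigned gene's 5′ end (horizontal axis, bp, negative upstream). Filled points are in the final list and the dashed line is its lowest signal; 4 of the 6 final summits are upstream, and those of lin-17 and sax-7 are 3812 and 4174 bp downstream.

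Measured from the gene's outermost start, regions at these genes lay farther away than regions in general, and less so from the nearest transcript start. The stretch nearest to a gene's own start limits such distances. Its median was 6982 bp at guidance genes and 6921 bp at synaptic genes, beside 3859 bp for all genes. Median gene length was 8997 and 6134 bp, beside 2027 bp. The part of spacing and gene length in the values below was not tested. From the outermost start the median distance was 1988.5 bp at guidance genes and 1965 bp at synaptic genes, beside 1052 bp over all assigned regions. Within 500 bp of the start were 11 of 54 guidance regions (20.4%) and 8 of 29 synaptic regions (27.6%), beside 31.5% of all assigned regions. From the nearest 5′ end of any annotated transcript of the gene, the median distance was 1177 bp at guidance genes and 1028 bp at synaptic genes, beside 910 bp over all assigned regions. By that measure 15 guidance regions (27.8%) and 10 synaptic regions (34.5%) lay within 500 bp, beside 34.9%. Introns held 28 guidance summits (51.9%) and 12 synaptic summits (41.4%), beside 29.4% over all assigned regions. Coding exons held 3 guidance summits and 1 synaptic summit (5.56% and 3.45%), beside 18.1%. Upstream of the start were 22 guidance regions (40.7%) and 15 synaptic regions (51.7%), beside 50.5%. For a gene's strongest region, the upstream count was 12 of 22 guidance genes (54.5%) and 8 of 14 synaptic genes (57.1%), close to the 53% over all genes with a region.

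Long genes also held regions that this assignment leaves out. In the bodies of 20 guidance genes there were 52 further summits, and in those of 5 synaptic genes 9, that were nearer to another gene's start or farther than 5000 bp from any. Of these 61, 2 were in the final list (3.28%), beside 3.47% of such summits over all protein-coding genes. One lay in an intron of unc-33, which helps to organize microtubules in axons, 8010 bp from its start, with a signal of 156.3 and ranks of 330 in replicate 1 and 368 in replicate 2. Its summit was 5 bp from the tRNA gene M57.t1 (IV 3524819 to 3524891) and nearest to the start of M57.2. The other lay in an intron of unc-104, 6624 bp from its start, with a signal of 161.0 and ranks of 377 in replicate 1 and 285 in replicate 2. The nearest tRNA gene to it, C52E12.t3, was 1382 bp away. The strongest of these summits outside the final list was in an intron of unc-73 but assigned to F55C7.2, with a signal of 87.1, and it ranked 1368 in replicate 1 and 733 in replicate 2. A candidate 6512 bp upstream of sax-3, past the limit for assignment, had 80.8.

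**Figure D4:**
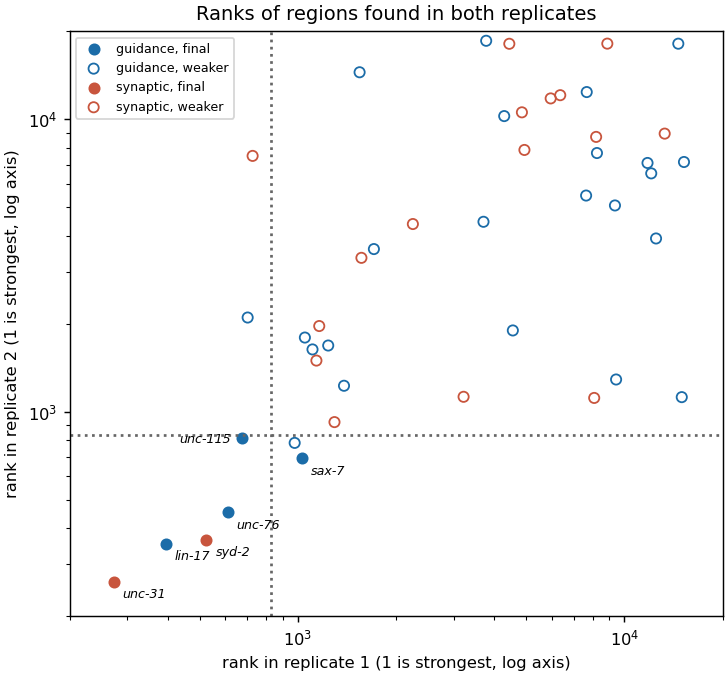
Rank of each of the 45 regions found in both replicates, in replicate 1 (horizontal) and replicate 2 (vertical), on log axes where 1 is the strongest row; dotted lines are at rank 830 and filled points are in the final list. The 6 final regions lie at ranks 273 to 1027 in replicate 1 and 262 to 814 in replicate 2, and the weaker ones scatter widely.

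Per the metadata texts, the final list passed a reproducibility filter. Among nuclear regions its membership coincided with a cut on the pooled signal at 98.3, with 0 regions differing. The pooled list derives from both replicates, so the closeness of their ranks on final regions is given as a description. Both replicates' lists held a row over 27 of the 54 guidance regions (50.0%) and 18 of the 29 synaptic regions (62.1%), beside 49.9% of all nuclear regions. Of the 83, 24 were in replicate 1 alone (28.9%, beside 27.5% of nuclear regions), 9 in replicate 2 alone (10.8%, beside 18.9%) and 5 in neither (6.02%, beside 3.78%). Across the 45 regions found in both, the replicate signals had a Spearman correlation of 0.58, beside 0.55 over 6332 nuclear regions. It was 0.36 over the 39 weaker regions, close to 0.34 over all weaker nuclear regions. These are correlations across regions of the same 2 libraries, given as a description. The strongest 830 rows of either replicate overlapped 7 of the 83 regions. Those of replicate 1 covered 5 of the 6 final regions, all but sax-7, with unc-44 and snb-1 added, and those of replicate 2 covered all 6, with mab-20 added.

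Of the 6 words searched, GAGAGA was the most frequent at these genes, as it was over all nuclear windows. It was in 16 of 54 guidance windows (29.6%) and 13 of 29 synaptic windows (44.8%), beside 17.1% of all nuclear windows and 24.9% of nuclear final ones. Among the 6 final windows it was in 2, those of unc-76 and sax-7. Alternating GA or TC runs of at least 10 bases, counted after the data were seen and overlapping with that word, were in 5 guidance windows and 2 synaptic ones, 8.43% of the 83, beside 2.34% of all nuclear windows. The receptor site AAGTCA was in 2 guidance windows and 1 synaptic window, at vab-1, sax-7 and unc-10, all of them weaker candidates, which is 3.61% beside 5.06% of all nuclear windows. AGGTCA was in 4 guidance windows and 1 synaptic window (6.02% beside 4.13%). The other words were below their shares over all nuclear windows: TAATTA was in 7.23% of the 83 windows beside 8.05%, TGATAA in 6.02% beside 9.26%, and CACGTG in 1.20% beside 2.99%. Of the final windows, that of lin-17 alone held TGATAA. A match is a description of these windows, and binding at a word was not measured.

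Other genes of the same pathways, from 2 longer lists, were set beside these. Of 36 other guidance genes, 26 had a pooled region (72.2%) and 1 had a final one (2.78%), beside 38.4% and 3.50% of all genes. The final one was at eva-1, a coreceptor for Slit, with a signal of 111.6. Of 38 other synaptic genes, 31 had a pooled region (81.6%) and 3 had a final one (7.89%), beside the same 38.4% and 3.50%. These were cat-1, the vesicular monoamine transporter (209.4), unc-26, synaptojanin (132.4), and egl-30, the G protein alpha subunit that promotes transmitter release (128.3). The cat-1 summit lay inside a tRNA gene, while those of unc-26 and egl-30 were 157 and 91 bp upstream of the gene starts. Final regions were 1.69% of the 59 regions at the other guidance genes and 6.12% of the 49 at the other synaptic genes, beside 6.59% over all genes. Their density was 0.376 and 1.15 per 100 kb, beside 0.840 for all genes. Pooled regions numbered 2.22 and 1.88 per 10 kb at the other guidance and synaptic genes, beside 1.27 for all genes. The share of final regions over the other guidance genes, 2.78% of genes, was below that of the 29 listed ones, 13.8%, and the difference was not tested.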

How the data were processed

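Chromatin of 2 biological replicates, 1 group, was analysed from peak lists. Per the metadata texts deposited with the lists, the candidate lists were called with a control file, for each replicate and for both pooled, and a final list passed a reproducibility filter (IDR). The deposited signal (column 7) and −log10 q value (column 9) were read by the columns' places in the format. The aligner, the peak caller and its thresholds were not given in the sources used here, and depth is unknown, so no interval was set on a signal. The ce11 lists were used, with genes of Ensembl release 115 and sequence and tRNA names of RefSeq for the same assembly (WBcel235). All nuclear regions end within its chromosomes. Of the ce10 lists, the signals of the final one were used. The columns of samples left unused numbered 0.

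Rows overlapping by at least 1 bp were merged and represented by the strongest row. A region was final where it overlapped a final row by at least 1 bp. Summits were placed in coding exons, then UTRs, introns or between genes. A replicate's value is its strongest row overlapping the region. Windows of 75 bases on each side of a summit were searched for 6 words on both strands. Scripts used Python 3.11.15, NumPy 2.4.6 and pandas 2.3.3, and merging, assignment and word search were tested on simulated data.

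The genes, lists and rules were chosen with earlier results of these data known. Every one of the 46 genes is named. Those with a final region are given in full, then the 6 strongest others of each group, then the rest by their strongest signal. Genes other than these were named after their values were seen.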

Additional observations from a re-analysis of the deposited data

How the results depend on the processing

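Of 70 values recomputed under alternatives, 53 stayed close to the reported ones. Close meant within 1.5 times for counts and within the SD of the 2 replicates' medians for signals. The replicates' lists have their own scales, so that SD also holds the difference in scale. Assignment within 1000 bp left 1 guidance gene (unc-76) and 1 synaptic gene (syd-2) with a final region (2.44% of all genes, against 3.50% as reported), 17 and 9 regions, and 9 synaptic genes with any region (24.6% of all genes). Keeping the stronger rows of the final list, down to its median signal, left 1 gene of each group, lin-17 and unc-31 (1.74% of all genes). With a q value of at most 0.05, 8 guidance and 7 synaptic genes were counted (6.56% of all genes). Regions found in both replicates numbered 27 and 18, with median signals of 56.9 and 61.0 (51.2 over all such assigned regions). The lists of single replicates gave median signals of 18.1 to 27.3 at guidance genes and 16.9 to 31.0 at synaptic genes, on their own scales (16.7 to 27.1 over all assigned regions). Their strongest 830 rows lay at 4 to 5 guidance genes and 2 to 3 synaptic genes (3.44% to 3.54% of all genes). In these, sax-7 was lost without replicate 2, mab-20 was gained without replicate 1, and unc-44 and snb-1 were gained without replicate 2. Within 10000 bp, unc-104 was added, for 3 synaptic genes (3.705% of all genes). Leaving out summits near tRNA and small RNA genes left 3 guidance genes (2.60% of all genes). The limits at the lowest ce10 signal, at the q value and near RNA genes were added after seeing the data. Counts of 6 final regions allow no comparison of guidance with synaptic genes beyond these values. No paired analysis was possible because there is 1 group.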
